A study of Homo sapiens with 6 samples.

Results

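PARP genes encode the enzymes that take ADP-ribose from NAD and attach it to proteins and nucleic acids, either as a single unit or as a chain. The family members studied here were the 10 rows of the deposited count table whose gene symbols are Parp1, Parp2, Parp3, Parp4, Parp8, Parp9, Parp10, Parp11, Parp12 and Parp14, out of 22989 genes listed. All 10 rows were found, and all 10 passed the filter on low counts. Parp1, Parp2 and Parp3 are nuclear enzymes of DNA break repair, and PARP1 is the target of PARP inhibitors used in breast cancer with defective homologous recombination. Parp9, Parp10, Parp11, Parp12 and Parp14 are known as interferon-stimulated genes in many cell types, and most of their products transfer single ADP-ribose units or read them.

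By the study's description, RNA was sequenced from 6 libraries of paclitaxel (PTX)-resistant MDA-MB-231 breast cancer stem cells (BCSC). This line comes from a human triple-negative breast cancer, and its BCSC were sorted for high aldehyde dehydrogenase (ALDH) activity. Of the libraries, 3 were labelled LINC00115 KD (knockdown of the long non-coding RNA LINC00115 by short hairpin RNA) and 3 were labelled WT, and resistance to PTX was common to both groups. The labels call the controls wild type, whereas the study describes a control hairpin, so effects of a hairpin or vector and of LINC00115 loss cannot be told apart. Nothing in the labels says that the 3 libraries of a group came from separate cultures, so p-values measure the spread between these libraries, which may be technical. The study names 1 hairpin, sh115-2, for this RNA-seq, but it also uses sh115-1 and sh115-2 as names of 2 hairpins, and these are the descriptions of KD libraries 1 and 2 in the labels. The comparison asked which transcripts changed in BCSC when LINC00115 was knocked down.

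The libraries held 36979221 to 38799331 counts, and no library was a copy of another, as pairs within a group had a chi-square of 3.38 to 6.19 per degree of freedom (1 is sampling noise alone). The labels give Homo sapiens, but the table lists mouse gene symbols, of which 4648 are Gm names and 1135 Rik names. The rows are thus named as mouse genes, and their symbols are printed as listed. Reads were counted under such names in both groups, as for Lyz2 (33, 52 and 5 counts in WT and 249, 250 and 247 in KD). The names and counts thus point to mouse RNA rather than to the labelled human cells, but no read sequences were checked. A value here may therefore not be that of the human gene of the same name. LINC00115 itself was matched to no row, so the knockdown could not be checked and every direction rests on the labels. Of the markers of the labelled cells, Vim (3418 normalized CPM in WT and 3736 in KD) and Cd44 (911 and 879) were abundant. The ALDH genes Aldh1a1 (0.327 and 1.16) and Aldh1a3 (0.00885 and 0.0351) were near 0, although Aldh1a1 was called higher in KD (fold change 3.53, adjusted p = 0.000925, edgeR). Of 5 genes that this line is known to express little or not at all, Cdh1 (0.0530 and 0.734) and Esr1 (0.698 and 2.56) were called higher in KD, Erbb2 (17.0 and 27.6) rose 1.62-fold, and Pgr and Epcam had at most 5 counts in any library. Normalized CPM are counts scaled to a common library total after TMM scaling, and these are means of 3 libraries.

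Promoters of the human genes of the same names are shown first, as only human sequences were used here and they may not be those of the cells sequenced. They are shown because 3 of the members that rose in KD share a short element there. The interferon-stimulated response element (ISRE) is a site bound by transcription factors of the type I interferon response, and its core, GAAA and GAAA with any 2 bases between them, was searched on both strands in 300-base windows from 250 bases before to 50 bases after each RefSeq gene start of GRCh38.p14. Of 35116 such windows, 3.57% held a match. This is a share of windows, whereas the members are counted by gene, and PARP8 and PARP9 had more than 1 window each. RefSeq windows were found for 8 of the 10 members under their human symbols (not PARP4 and PARP10), and PARP9, PARP12 and PARP14 held 1 match each. PARP1, PARP2, PARP3, PARP8 and PARP11 held 0 matches in any window. The sequences of the human genes are given 5′ to 3′ on the strand of the gene, with the ISRE match in capitals. For PARP14, PARP12 and, as a member that rose without a match, PARP11, they are the 100 bases before the start. For the divergent genes DTX3L and PARP9 they are 30 bases around the shared site, which spans the start of DTX3L.
PARP14, chr3:122680739-122680838, plus strand: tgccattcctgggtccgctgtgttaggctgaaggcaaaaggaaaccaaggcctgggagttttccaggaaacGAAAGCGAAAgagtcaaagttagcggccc
PARP12, chr7:140062952-140063051, minus strand: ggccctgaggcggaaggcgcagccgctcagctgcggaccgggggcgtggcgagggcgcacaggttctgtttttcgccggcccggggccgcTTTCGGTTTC
DTX3L and PARP9, chr3:122564322-122564351, plus strand (the strand of DTX3L): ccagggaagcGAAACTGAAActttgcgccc
PARP11, chr12:3873400-3873499, minus strand: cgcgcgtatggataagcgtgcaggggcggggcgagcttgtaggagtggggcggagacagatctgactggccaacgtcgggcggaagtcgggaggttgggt

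In PARP14 the match began 29 bases before the gene start, and in PARP12 it began 10 bases before and lay on the opposite strand. The matches of PARP9 and DTX3L were the same 10 bases, chr3:122564332-122564341, read from the 2 strands of a divergent pair. The match began 41 bases before 1 of the 2 RefSeq starts of PARP9. In DTX3L it began 6 bases before the start and ran past it. On human chromosome 3 the protein-coding genes PARP9, DTX3L, PARP15 and PARP14 follow each other in this order. The gamma-activated element, TTCNNNGAA, which reads the same on both strands, was in 7.66% of the windows. It was in those of PARP14 (40 bases before the start, without overlap with the ISRE match), PARP2 and ZC3HAV1. A match of letters in a human promoter is a description and no evidence of binding in these cells.

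LINC00115 KD libraries held more reads of Parp9, Parp10, Parp11, Parp12 and Parp14 and slightly fewer of Parp1 and Parp2. By the quasi-likelihood test of edgeR, with p-values adjusted over 13497 genes (Benjamini-Hochberg) and with the study's thresholds of an adjusted p under 0.05 and a fold change over 2, 5 of the 10 members were called higher and 0 lower (also 0 lower with DESeq2). Among all genes tested 10.2% were called higher and 9.98% lower. Without the fold threshold, 7 members were higher and 2 lower, beside 36.7% of all genes in each direction. The median log2 fold change of the members was 1.12, and that of all genes tested was −0.0061. In 9 of the 10 members the 3 KD libraries did not overlap with the 3 WT libraries, which held for 75.6% of all genes tested. In bulk RNA, a change in the share of cells that express a gene cannot be told apart from a change in RNA per cell.

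**Figure D1:**
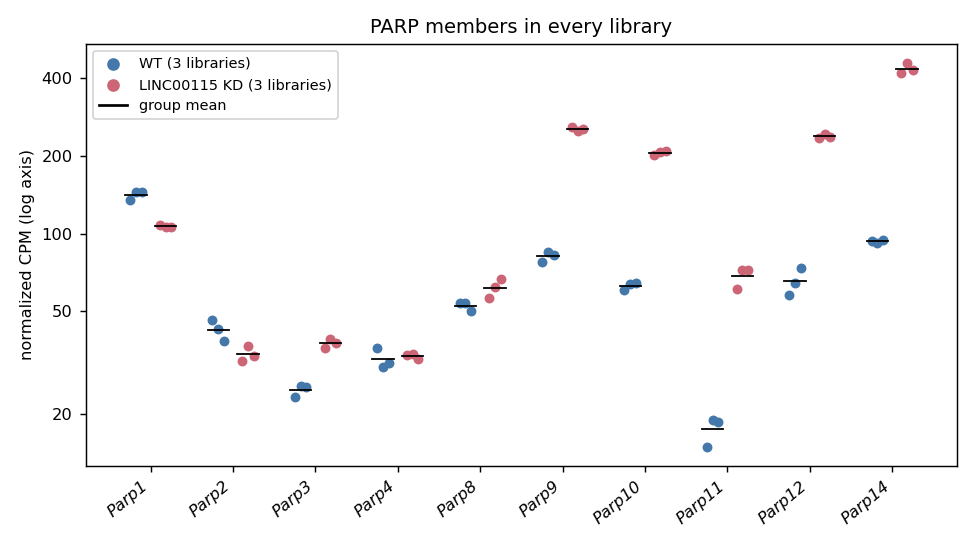
Normalized CPM (log axis) of the 10 PARP members in each library, with WT in blue, LINC00115 KD in red and the group mean as a black line. Parp9, Parp10, Parp11, Parp12 and Parp14 lie far apart between the groups, and Parp4 is the member whose groups overlap.

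Parp14, a protein with macrodomains that read ADP-ribose and a cofactor of STAT6, rose most. It had 93.7, 92.2 and 94.3 normalized CPM in the WT libraries and 420.2, 457 and 429 in the KD libraries. Every KD library was above every WT library by more than the spread within either group. The fold change was 4.66 (log2 fold change 2.22, standard error 0.04, adjusted p = 1.90e-32, edgeR). Of all genes tested, 3.87% had a higher log2 fold change.

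Parp9 has macrodomains and forms a complex with the ubiquitin ligase Dtx3l, which supports the transcription of interferon-stimulated genes. Parp9 had 78.0, 84.9 and 82.5 normalized CPM in WT and 259, 250.4 and 254 in KD. The groups stood apart and the fold change was 3.11 (log2 fold change 1.64, standard error 0.04, adjusted p = 5.54e-28, edgeR). Dtx3l had 61.4, 61.8 and 68.3 normalized CPM in WT and 197, 200.1 and 193 in KD, and its log2 fold change was 1.63 (standard error 0.04, adjusted p = 1.12e-26, edgeR).

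The ratio of Parp9 to Dtx3l counts within a library, which needs no scaling between libraries, was 1.27, 1.37 and 1.21 in WT and 1.31, 1.25 and 1.31 in KD. The KD ratios lay within the WT range (1.28 ± 0.0835 and 1.29 ± 0.0361, SD, n = 3 each, exact permutation p = 1, two-sided). The ratio of Parp14 to Parp9 was 1.20, 1.09 and 1.14 in WT and 1.62, 1.83 and 1.69 in KD. Its groups did not overlap, and the two-sided exact permutation p of 0.1 is the smallest that 3 against 3 libraries allow. These ratios are of read counts and are not ratios of transcripts, which differ in length. The pairs were chosen after the values were seen, so the ratios are a description.

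**Figure D2:**
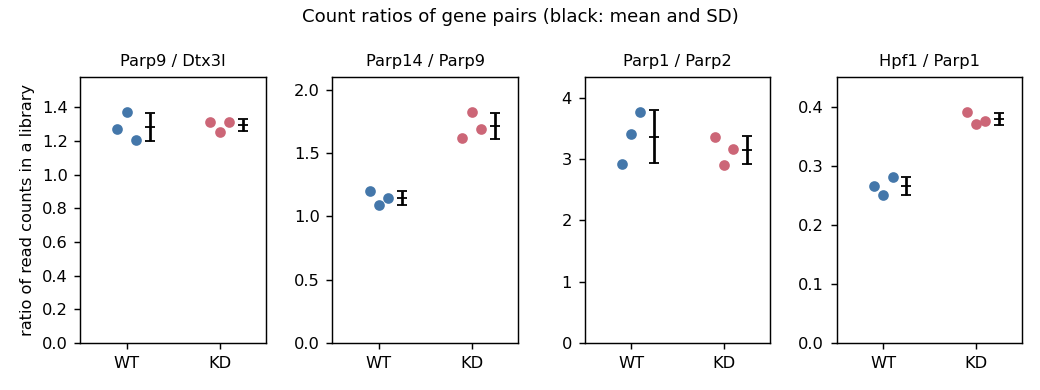
Ratios of read counts of gene pairs within each library, with 3 WT and 3 LINC00115 KD (KD) points per panel and the mean and SD in black, on axes that start at 0. Parp9 / Dtx3l and Parp1 / Parp2 overlap between the groups, whereas Parp14 / Parp9 and Hpf1 / Parp1 are higher in every KD library.

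Parp10 transfers single ADP-ribose units and is known as a Myc partner. Its 60.3, 63.9 and 64.7 normalized CPM in WT compared with 202, 207 and 209 in KD. The fold change of 3.27 (log2 fold change 1.71, standard error 0.04, adjusted p = 5.78e-28, edgeR) was close to that of Parp9, and the intervals of 1 standard error overlapped.

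Parp12 is a CCCH zinc finger protein of the Golgi with antiviral activity. It had 57.9, 64.5 and 73.5 normalized CPM in WT and 235, 243 and 236 in KD. The fold change was 3.64 (log2 fold change 1.86, standard error 0.05, adjusted p = 2.14e-26, edgeR). Its spread was wider in WT (coefficient of variation 12.0%) than in KD (1.80%), with no test of this difference.

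Parp11, a nuclear envelope enzyme that acts on the turnover of the type I interferon receptor, was the member with the fewest counts in WT, 563, 718 and 704. It had 14.9, 19.0 and 18.6 normalized CPM there and 60.8, 72.2 and 72.5 in KD. In both groups library 1 was the lowest, and the groups still stood apart. The fold change was 3.91 (log2 fold change 1.97, standard error 0.08, adjusted p = 5.52e-22, edgeR), and intervals of 1 standard error overlapped with those of Parp12.

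The DNA break sensors moved less and not all in the same direction. Parp1, the main producer of poly(ADP-ribose) at DNA breaks, had 135, 145 and 145 normalized CPM in WT and 108, 106 and 106 in KD. Every KD library was below every WT library, and Parp1 fell by 0.41 on the log2 scale (standard error 0.04, adjusted p = 7.77e-11, edgeR). Parp2, its close relative, had 46.4, 42.6 and 38.4 in WT and 32.1, 36.7 and 33.5 in KD. The groups were separated by a small gap, and Parp2 fell by 0.32 on the log2 scale (standard error 0.07, adjusted p = 0.000111, edgeR). The ratio of Parp1 to Parp2 counts was 3.36 ± 0.429 in WT and 3.14 ± 0.227 in KD (SD, n = 3 each, exact permutation p = 0.4, two-sided).

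Parp3, which acts in double-strand break repair, rose instead. It had 23.4, 25.6 and 25.5 normalized CPM in WT and 36.1, 39.2 and 37.7 in KD. Its log2 fold change was 0.60 (standard error 0.07, adjusted p = 1.22e-09, edgeR), a fold change of 1.52 and under the threshold of 2.

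Parp8, an enzyme for single ADP-ribose units whose function is little known, had 53.8, 54.1 and 50.04 normalized CPM in WT and 56.3, 62.1 and 66.5 in KD. It rose by a fold change of 1.17 (log2 fold change 0.23, standard error 0.06, adjusted p = 0.000732, edgeR), with a narrow gap between the groups. Parp4, the PARP of the vault particle, had 36.2, 30.6 and 31.7 in WT and 33.8, 34.1 and 32.6 in KD. Its KD values lay inside the WT range, and its log2 fold change was 0.030 (95% interval −0.11 to 0.17, adjusted p = 0.706, edgeR), so a change beyond that interval was not seen at this depth.

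Together the members took 609 to 626 CPM (without TMM scaling) in WT and 1438 to 1497 in KD. Of the members' reads, Parp9, Parp10, Parp11, Parp12 and Parp14 made up 52.1 ± 1.34% in WT and 81.5 ± 0.152% in KD (SD, n = 3 each). These 5 genes are grouped here because their change was known, so the shares are a description. The share of Parp1, Parp2 and Parp3 was 34.0 ± 0.462% in WT and 12.1 ± 0.0937% in KD. Parp14 alone had 15.2 ± 0.408% in WT and 29.5 ± 0.719% in KD of the members' reads.

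The 6 PARP genes of the table outside this set were called in neither direction, with 1 higher and 4 lower past an adjusted p of 0.05 and a median log2 fold change of −0.41. Zc3hav1, a catalytically inactive PARP that binds CpG-rich viral RNA and is known as ZAP, was the one that rose. It had 152, 159 and 157 normalized CPM in WT and 263, 275 and 279 in KD, and its log2 fold change was 0.80 (standard error 0.04, adjusted p = 5.87e-20, edgeR).

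Parp6, an enzyme for single ADP-ribose units, had 24.7, 23.2 and 29.9 normalized CPM in WT and 14.6, 14.6 and 14.3 in KD and fell by 0.84 on the log2 scale. Parp16, an enzyme anchored in the endoplasmic reticulum membrane, had 52.2, 49.7 and 50.6 in WT and 31.9, 33.5 and 30.5 in KD and fell by 0.67. Tiparp, a target and repressor of the aryl hydrocarbon receptor, had 252, 253 and 246 in WT and 165, 168 and 172 in KD and fell by 0.57. For these 3 genes the adjusted p-values were 3.14e-10, 5.13e-12 and 4.19e-16 (edgeR), and every KD library was below every WT library.

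The tankyrases build poly(ADP-ribose) chains on axin and telomere proteins. Tnks2 fell by 0.24 on the log2 scale (adjusted p = 1.54e-07, edgeR), from 244 ± 3.75 to 206 ± 2.53 normalized CPM (SD, n = 3 each). Tnks had 97.0, 93.6 and 81.4 in WT and 97.5, 95.4 and 95.5 in KD, with a log2 fold change of 0.085 (95% interval −0.014 to 0.18, adjusted p = 0.131, edgeR).

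**Figure D3:**
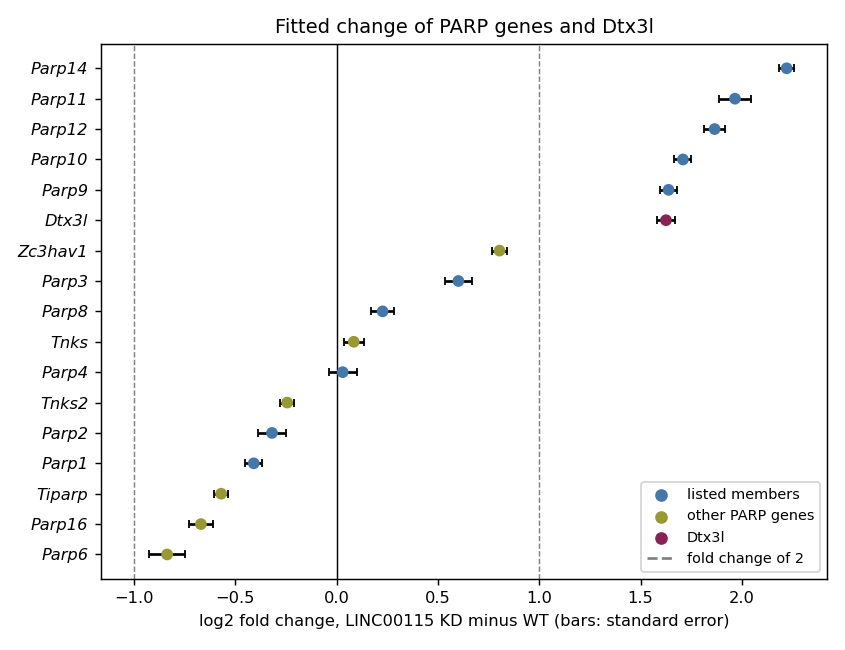
Fitted log2 fold change (LINC00115 KD minus WT) with its standard error for the 10 listed members (blue), the 6 other PARP genes (olive) and Dtx3l (purple), with dashed lines at a fold change of 2. The 5 members called higher and Dtx3l lie between 1.63 and 2.22, and all other genes plotted lie between −0.84 (Parp6) and 0.80 (Zc3hav1).

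Of 19 partners, erasers and readers of ADP-ribose, 17 were tested, 2 were called higher and 1 lower, and the median log2 fold change was 0.31. Past an adjusted p of 0.05 were 9 higher and 4 lower genes. Besides Dtx3l, the ubiquitin ligase Rnf114 was called higher, from 70.3 ± 4.23 to 168 ± 2.79 normalized CPM (SD, n = 3 each, log2 fold change 1.25). Aplf, a poly(ADP-ribose)-binding factor of end joining, was called lower, from 20.3 ± 1.43 to 9.86 ± 0.665, a log2 fold change of −1.04.

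Parg, the enzyme that cuts poly(ADP-ribose) chains, rose by 0.33 on the log2 scale (adjusted p = 7.63e-06, edgeR), from 39.2 ± 2.49 to 49.3 ± 1.17 normalized CPM (SD, n = 3 each). Hpf1, the factor that directs Parp1 and Parp2 to serine residues, had 37.7 ± 2.65 in WT and 40.5 ± 1.44 in KD, with a log2 fold change of 0.10 (95% interval −0.022 to 0.23, adjusted p = 0.145, edgeR). Its ratio to Parp1 counts was 0.267, 0.251 and 0.282 in WT and 0.392, 0.371 and 0.376 in KD, with no overlap (exact permutation p = 0.1, two-sided, the smallest possible). This pair was chosen after the values of both genes were seen, so the ratio is a description.

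Of 20 genes of single-strand break and base excision repair, 19 were tested and none was called, with 5 higher and 8 lower past an adjusted p of 0.05 and a median log2 fold change of −0.15. Xrcc1, the scaffold recruited by poly(ADP-ribose), fell by 0.62 on the log2 scale (adjusted p = 5.27e-11, edgeR), from 54.1 ± 2.21 to 35.2 ± 2.62 normalized CPM (SD, n = 3 each). Lig3, the ligase that partners it, had 76.9 ± 2.99 in WT and 75.4 ± 1.79 in KD (adjusted p = 0.595, edgeR).

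Of 14 genes of NAD supply and use, 12 were tested, 1 was called higher and 2 lower, and the median log2 fold change was −0.33. Nnmt, which methylates nicotinamide, rose from 17, 15 and 26 counts in WT to 1396, 1178 and 1389 counts in KD (log2 fold change 6.08, adjusted p = 2.07e-28, edgeR). Nadk2, the mitochondrial NAD kinase, fell by 1.75 and Nmnat3, an enzyme of NAD synthesis, by 2.06 on the log2 scale (adjusted p = 2.55e-26 and 8.36e-10, edgeR). Nampt, the rate-limiting enzyme of NAD salvage, rose by a log2 fold change of 0.24 (adjusted p = 3.57e-07, edgeR).

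Among 14 genes of interferon signalling, all 14 were tested, 5 were called higher and 1 lower, and past an adjusted p of 0.05 were 7 in each direction, with a median log2 fold change of −0.0052. Among the transcription factors called higher were Stat2 (log2 fold change 2.11), Irf7 (2.67) and Irf9 (1.04), with Irf7 at 71.5 ± 2.09 normalized CPM in WT and 454 ± 12.1 in KD (SD, n = 3 each). The cytokine gene Ifnb1 was called higher on few reads, 1, 5 and 1 counts in WT and 40, 66 and 87 in KD. The receptor-associated kinase Tyk2 was called lower, with a log2 fold change of −1.30, and of the receptor chains Ifnar1 fell by 0.54 on the log2 scale and Ifnar2 rose by 0.27 (adjusted p = 4.03e-12 and 0.000172, edgeR).

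The 3 genes whose pattern over the 6 libraries lay closest to that of Parp14 (Euclidean distance of log2 CPM centred on each gene's mean) were Hmcn2 (distance 0.110), Uba7 (0.112) and Dhx58 (0.119). Uba7 is the activating enzyme for ISG15, Dhx58 an RNA sensor of the RIG-I family, and Hmcn2 an extracellular matrix gene at 0.989 normalized CPM in WT. The 6 libraries form 2 groups, so any gene with a group difference of like size lies close by this measure.

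Markers of other cells also differed between the groups, and their part in the PARP changes was not tested. The summed level of 10 lung epithelium markers was 0.770 to 1.09 normalized CPM in WT and 68.1 to 80.6 in KD, and 10 of 10 were above 3 counts and higher in every KD library. The sum of 10 kidney epithelium markers was 16.7 to 19.5 in WT and 41.3 to 45.3 in KD, with 7 of 10 higher by that rule and 1, Cubn, lower (8.28 and 6.07). Of 16 leukocyte markers, 13 were in the table, 4 were higher by that rule, and their sum was 72.1 to 86.2 in WT and 144 to 160 in KD. The 4 that rose were S100a8 (33.0 and 95.2 normalized CPM), Lyz2 (0.795 and 6.58), Cd74 (0.928 and 3.27) and S100a9 (0.0176 and 1.47), all called higher, and the rest of the sum was mostly Cd68 (42.8 and 47.2, adjusted p = 0.0901, edgeR). The defining markers Cd3e (0 in both groups) and Ptprc (0.194 and 0.255) were at or near 0. Of 6 endothelium markers 1 was higher, Cdh5, with 0.221 normalized CPM in WT and 57.8 in KD, while Pecam1 had 0.230 and 0.324. Of 6 fibroblast markers 0 were higher and 2, Pdgfra and Dcn, were lower, and their sum was 174 to 193 in WT and 75.7 to 77.8 in KD.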

How the data were processed

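RNA-seq of 3 LINC00115 KD and 3 WT libraries was analysed from 1 table of read counts per gene, which the authors deposited without normalization. By the study's methods adapters were trimmed and reads mapped with HISAT2 to hg19, whereas the submitters' processing notes name hg38, HISAT2, featureCounts and DESeq2. Annotation and strand setting are not given in the sources used here, so reads shared by overlapping or related genes, such as the divergent Parp9 and Dtx3l, may be split in unknown ways. Columns were matched to samples by their descriptions, and 0 value columns were left out.

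The counts were fitted with edgeR 4.0.16 in R 4.3.3 (filterByExpr with a minimum count of 10 and a minimum total of 15, TMM, quasi-likelihood test with the group alone, Benjamini-Hochberg adjustment over 13497 genes), and called at an adjusted p under 0.05 and a fold change over 2. Standard errors are the log2 fold change over the square root of F, and 95% intervals use the normal distribution. The pipeline was run on simulated counts with 200 changed genes, far fewer than were called here. That run was a check of the code and not of these results. Same-numbered libraries did not deviate together, so no block was used. Members, gene lists and tests were chosen with earlier results of these data known. Named are all members, the other PARP genes, pathway genes called, and the 3 genes closest to the most changed member. Parg, Hpf1, Xrcc1, Lig3, Nampt, Ifnar1 and Ifnar2, the genes in the count ratios and single markers were named after their values were seen. Alternatives were other scalings and filters, DESeq2 1.42.0, each replicate left out, a replicate block and no fold threshold. Promoter sequences are RefSeq's (GRCh38.p14, human), matched by symbol without regard to case. Genes counted in the lists but not reported by name are left out of the text.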

Additional observations from a re-analysis of the deposited data

How the results depend on the processing

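Each group had 3 libraries, and every member had 563 counts or more in each of them. Whether depth limited the members' values was not tested. Over 13 alternatives that kept the fold threshold, 5 members were called higher and 0 lower, and past an adjusted p of 0.05 were 7 higher and 2 lower members. The log2 fold change stayed between 2.18 and 2.25 for Parp14, 1.86 and 2.05 for Parp11, and 1.79 and 1.96 for Parp12. It stayed between 1.67 and 1.73 for Parp10, 1.60 and 1.67 for Parp9, and 0.56 and 0.64 for Parp3. The range was 0.18 to 0.30 for Parp8 (adjusted p up to 0.0166, edgeR), −0.45 to −0.39 for Parp1, and −0.39 to −0.25 for Parp2. The log2 fold change of Parp4, which passed no test, turned to −0.012 with upper quartile scaling and to −0.017 without WT replicate 2. Its range was −0.017 to 0.11 over the 6 fits that left out a replicate. The cause was not tested.

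Without the fold threshold, 2 members were lower, 26 genes of the 5 lists were higher and 28 lower (8 and 4 with it), and 4952 of all genes were higher and 4960 lower (1381 and 1347 with it). With at least 10 counts in every library, a filter that removes genes absent from a group, 903 genes were called higher. With each replicate left out, 1405 to 1488 genes were called higher and 1257 to 1392 lower. Same-numbered libraries had correlations of −0.0214 to 0.0421 in their deviations from the group means, so the numbers did not pair them. With the replicate block, 5 members were called higher and 0 lower, and 1360 of all genes higher and 1316 lower.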
